A study of Mus musculus with 16 samples.

Results

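A set of 10 genes of T cells, regulatory T cells and interleukin-33 (IL-33) signalling was followed in mouse epididymal fat: Cd3e, Cd4, Cd8a, Cd28, Foxp3, Ctla4, Gata3, Klrg1, Il1rl1 and Il33. They were taken by symbol from the deposited gene table, which lists 45777 genes. All 10 were found once, and all 10 were among the 19189 genes left for testing by a filter on low counts. The samples were bulk poly(A) RNA of male mice, taken from epididymal white fat, a visceral depot that lies next to the epididymis. A-LTA4HOE mice, called OE mice below, carry extra LTA4H (leukotriene A4 hydrolase, the enzyme that makes leukotriene B4) in adipocytes, according to the series title. The promoter that drives the transgene, the strain and the make-up of the control mice (Ctrl) are not given in the sources used here. Every group, the controls included, was fed a high-fat diet (HFD22, with 60% of its kcal from fat) from 4 weeks of age, so none ate ordinary chow. The groups were Ctrl and OE mice at 8 weeks of age after 4 weeks of the diet, and Ctrl and OE mice at 20 weeks of age after 16 weeks of it, with 4 libraries in each of the 4 groups. Age and time on the diet rose together, and they cannot be told apart from each other or from any difference in handling between the ages. The labels number the mice of a group from 1 to 4 without saying whether a sample pools animals, so the p-values measure the spread between these samples.

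A T cell reads antigen through its T cell receptor, whose signal is passed on by the CD3 chains, with CD4 or CD8 as a coreceptor. CD28 adds the costimulatory signal, and CTLA4 competes with it for the same ligands and restrains the cell. Regulatory T cells, which hold inflammation in check, are defined by the transcription factor FOXP3. In visceral fat, many regulatory T cells also carry GATA3, KLRG1 and ST2, the receptor for IL-33 that Il1rl1 encodes. IL-33 itself is released by stromal, endothelial and mesothelial cells when they are damaged or stressed, and ST2 is also found on group 2 innate lymphoid cells (ILC2), mast cells and eosinophils.

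The sequences before the annotated starts of Il1rl1 and Il33 are shown first, because the receptor was the member that rose in both genotypes and the other gene encodes its ligand. RefSeq (GRCm38.p6, the mm10 assembly that the submitters' processing notes name) gave 10 promoter windows for 7 of the 10 genes. GATA factors read sites with the core GATA, and the motif searched was AGATAA on either strand (TTATCT when read on the other), printed in capitals. Each line holds the 250 bases before a start, 5′ to 3′ on the plus strand.
Il1rl1 chr1:40429320-40429569: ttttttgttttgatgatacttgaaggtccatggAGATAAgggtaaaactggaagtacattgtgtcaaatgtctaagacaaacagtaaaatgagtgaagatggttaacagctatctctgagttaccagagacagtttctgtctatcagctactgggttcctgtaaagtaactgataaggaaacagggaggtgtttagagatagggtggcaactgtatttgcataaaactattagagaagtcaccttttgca
Il1rl1 chr1:40439379-40439628: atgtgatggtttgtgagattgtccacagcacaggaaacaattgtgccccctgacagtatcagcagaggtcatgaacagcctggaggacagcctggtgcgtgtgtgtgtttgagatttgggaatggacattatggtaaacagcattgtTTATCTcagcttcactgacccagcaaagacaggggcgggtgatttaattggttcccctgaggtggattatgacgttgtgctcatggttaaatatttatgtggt
Il33 chr19:29924863-29925112: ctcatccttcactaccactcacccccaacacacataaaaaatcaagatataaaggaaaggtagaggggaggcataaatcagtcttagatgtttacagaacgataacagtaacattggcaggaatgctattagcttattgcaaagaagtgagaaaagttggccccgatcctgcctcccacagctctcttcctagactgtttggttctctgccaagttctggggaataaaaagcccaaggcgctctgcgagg
Il33 chr19:29945540-29945789: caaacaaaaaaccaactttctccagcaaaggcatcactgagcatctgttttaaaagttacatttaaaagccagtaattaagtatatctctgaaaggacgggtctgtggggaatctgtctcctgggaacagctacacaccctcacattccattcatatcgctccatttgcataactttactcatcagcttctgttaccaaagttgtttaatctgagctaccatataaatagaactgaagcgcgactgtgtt
Both Il1rl1 windows held the GATA motif, 217 and 103 bases before the start, and neither Il33 window did. Of all 32851 windows of 300 bases (250 before to 50 after a start), 11.2% held it. Among the other members with a window, 1 of the 2 Foxp3 windows held it, 47 bases before the start, and the windows of Cd3e, Cd8a, Ctla4 and Gata3 did not. The ETS motif AGGAAG was in 4 of the 10 member windows (Cd3e, Ctla4, Foxp3 and Il33) and in 35.4% of all windows. The Runx motif TGTGGTT was in none of the 10 and in 5.27% of all, and the forkhead motif TGTTTAC was in 2 of the 10 (Il1rl1 and Il33) and in 3.65% of all. All motifs were searched on both strands, and no motif's letters lay inside another's. The gene Il1rl1 spans chr1:40404864-40465418 and starts before both windows. The table counts reads per gene, so it cannot tell which start was used, and a match is a description of letters, not of binding.

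The libraries held 33626901 to 67576994 counts each. Lta4h, the overexpressed gene, was at 79.4 to 104 CPM, the counts relative to TMM-adjusted library totals, in the 8 Ctrl libraries and at 239 to 427 CPM in the 8 OE libraries, so each library's level fitted its label. The summed level of 10 mature adipocyte markers was 6142 to 24425 CPM over the 16 libraries, and all 10 were present. Some libraries stood apart, and results that rest on them are given with and without them. Ctrl 8-week replicate 4 and OE 8-week replicate 2 carried transcripts of the neighbouring epididymis: 12 epididymal epithelium genes summed to 3716 and 2446 CPM there and to at most 174 CPM in each of the other 14 libraries. Ctrl 20-week replicate 1 had the most B cell RNA, with 8 B cell markers at 128 CPM against 40.8 to 42.7 CPM in the rest of its group. OE 20-week replicate 1, Ctrl 8-week replicate 1 and OE 8-week replicate 1 were treated as apart because of earlier results of these data, and each had the lowest Il33 of its group.

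Per unit of transcript length, the IL-33 pair was the most abundant of the 10. In the authors' deposited TPM, a length-scaled share of transcripts, the median over the 16 libraries was 12.8 for Il33 and 5.98 for Il1rl1. The coreceptor and receptor genes followed, with Cd4 at 1.82 TPM and Cd3e at 1.67 TPM. Cd28 was at 1.16, Klrg1 at 0.992, Cd8a at 0.810, Gata3 at 0.735, Ctla4 at 0.477 and Foxp3 at 0.294 TPM, so the defining regulatory T cell factor was the lowest of the 10. The ranges of neighbours in this order overlapped in every case, for example 2.96 to 20.1 TPM for Il33 and 3.76 to 15.9 TPM for Il1rl1.

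**Figure D1:**
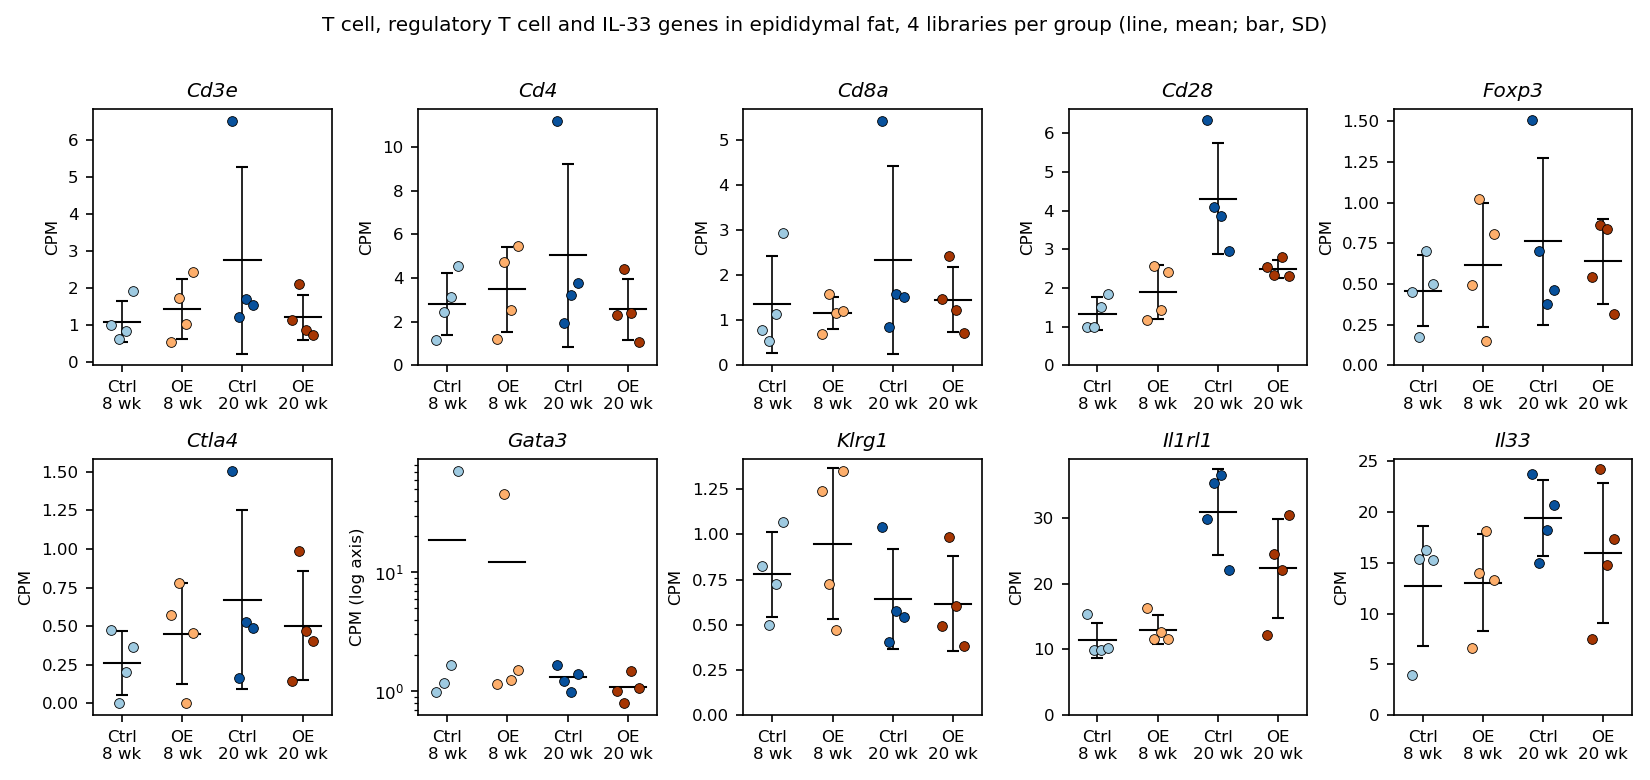
Level of each of the 10 genes in CPM in every library, with 4 libraries per group (points), the group mean (line) and the SD (bar, left out for Gata3, whose axis is logarithmic). Il1rl1 and Cd28 lie higher in the Ctrl mice at 20 weeks than at 8 weeks with no overlap, Gata3 is high in 1 library of each 8-week group, and Ctrl 20-week replicate 1 is the top point of its group in 9 of the 10 panels.

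Between 8 and 20 weeks, Il1rl1 rose in both genotypes and Cd28 rose in the Ctrl mice. These were the calls among the 10 genes: 2 of 10 in the Ctrl mice, where 40.9% of all genes tested were called (19.6% higher), and 1 of 10 in the OE mice, where 23% were called (13.1% higher). All 3 calls were in the higher direction, and the members' shares were near or below the shares of all genes called higher, so the counts show nothing particular to these genes. A call here is an adjusted p under 0.05 in edgeR's quasi-likelihood test, adjusted over all 19189 genes. Between OE and Ctrl mice, 0 of the 10 genes were called at 8 weeks (background 0.0208%) and 0 of 10 at 20 weeks (background 0.0261%). At an unadjusted p under 0.05 the counts were 0 of 10 at 8 weeks (2.21% of all genes) and 1 of 10 at 20 weeks (3.97%). DESeq2 called 0 of 10 at either age (backgrounds 0.0782% and 0.313%), and limma-voom with quality weights called 0 of 10 (0.0625% and 0.104%). The interaction, which asks whether the change with age differed between the genotypes, was called for 0 of 10 (background 0%), with 1 of 10 at an unadjusted p under 0.05 (3.39% of all genes), 0 of 10 by DESeq2 (0.156%) and 0 of 10 by limma-voom (0%).

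**Figure D2:**
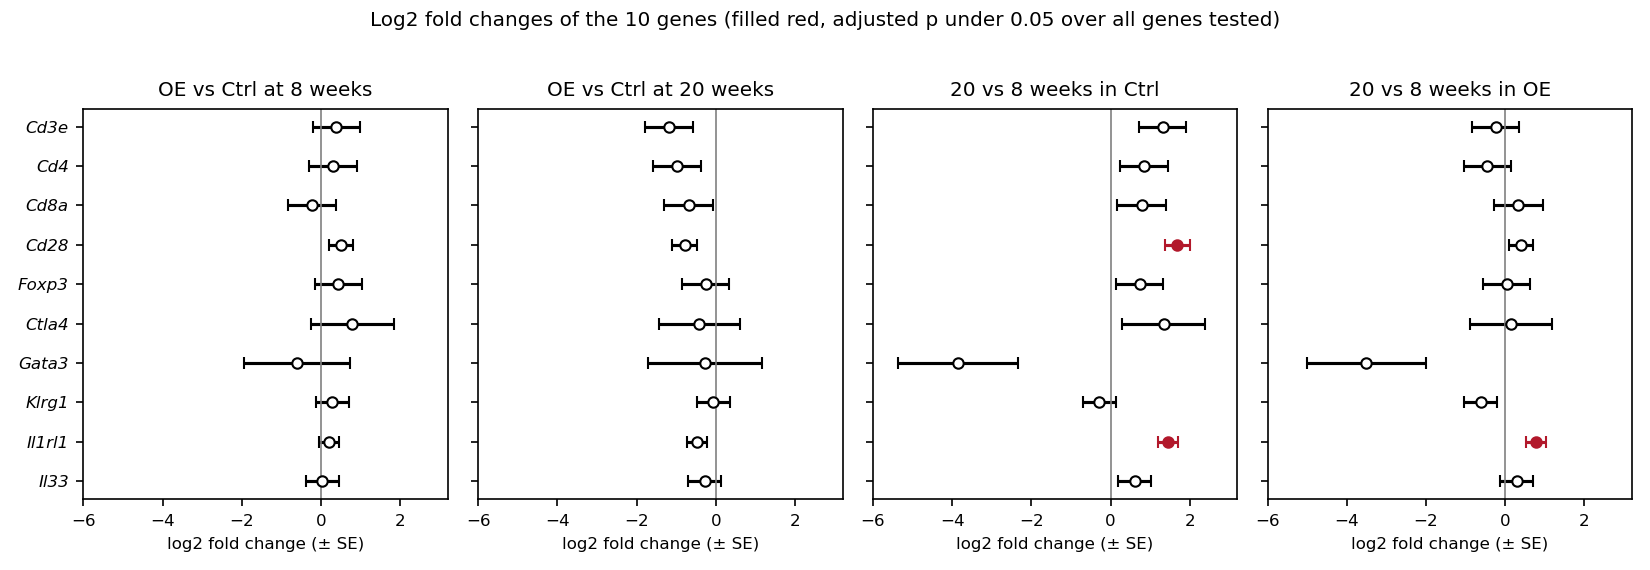
Log2 fold change (point) and its standard error (bar) of the 10 genes in the 4 comparisons, from edgeR; filled red points have an adjusted p under 0.05 over all genes tested. Red are Cd28 (1.69) and Il1rl1 (1.45) for 20 against 8 weeks in Ctrl mice and Il1rl1 (0.78) in OE mice.

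Cd3e, the signalling chain of the T cell receptor complex, did not differ beyond the spread between libraries in any comparison. In the Ctrl mice it was at 1.01, 0.626, 0.839 and 1.91 CPM at 8 weeks and at 6.52, 1.22, 1.71 and 1.55 CPM at 20 weeks. In the OE mice it was at 0.545, 1.72, 1.04 and 2.42 CPM at 8 weeks and at 1.13, 2.099, 0.864 and 0.744 CPM at 20 weeks. One library of the 20-week Ctrl group, replicate 1, was far above the rest, and all 4 groups overlapped. The log2 difference between ages in the Ctrl mice was 1.32 ± 0.60 (SE, n = 4 against 4, edgeR adjusted p = 0.0905). It was 0.44 without Ctrl 20-week replicate 1 (edgeR adjusted p = 0.521), and it passed the threshold, at 1.73, without Ctrl 8-week replicate 4 (edgeR adjusted p = 0.0490). For OE mice the log2 difference of Cd3e was -0.25 ± 0.59.

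The coreceptors Cd4, of helper and regulatory T cells, and Cd8a, of cytotoxic T cells, had the same high library. Cd4 ranged from 1.17 to 4.53 CPM in Ctrl and from 1.21 to 5.46 CPM in OE mice at 8 weeks. At 20 weeks Cd4 was at 11.2 CPM in Ctrl replicate 1, at 1.95 to 3.76 CPM in the other 3 Ctrl libraries and at 1.08 to 4.42 CPM in the OE mice. Cd8a was at 5.42 CPM in Ctrl 20-week replicate 1 and between 0.518 and 2.92 CPM in the other 15 libraries. Without that library, the log2 difference between ages in the Ctrl mice went from 0.83 to 0.08 for Cd4 and from 0.79 to -0.05 for Cd8a, and it passed no threshold with or without it. With 2 surrogate variables in the fit, a correction for unlabelled variation, Cd4 was called in the Ctrl mice (1.85 ± 0.63, edgeR adjusted p = 0.0421). The OE-to-Ctrl log2 differences were 0.30 ± 0.60 for Cd4 and -0.23 ± 0.62 for Cd8a at 8 weeks, and -0.98 ± 0.61 and -0.69 ± 0.62 at 20 weeks. In bulk tissue, fewer cells of a type and less RNA per cell cannot be told apart, and this holds for every gene described here.

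Of the 18 genes of the wider T cell receptor list, 4 rose and 0 fell with age in the Ctrl mice: Lat (an adaptor of the receptor, log2 1.57), Trac (the receptor's alpha constant region, 2.03), Cd5 (2.24) and Cd6 (1.39), the last 2 being surface receptors that tune the signal. Over all genes, 19.6% were called higher in the Ctrl and 13.1% in the OE mice. The 4 of 18 was near the Ctrl share, and a count near these shares shows nothing particular to a list. The calls of Lat and Trac held when any 1 library was left out. Without Ctrl 20-week replicate 1, Cd5 went to 1.25 (edgeR adjusted p = 0.0651) and Cd6 to 0.65 (0.252), and Cd6 also lost its call in 7 of the other 15 omissions of 1 library, under which Cd5 kept its own, though Cd5 was not called by limma-voom. The list's median log2 change in the Ctrl mice was 0.87 with and 0.05 without that library, and -0.05 over all genes. Among OE mice 1 of 18 rose and 0 fell, Trac at 1.49, a call that was lost when OE 20-week replicate 2, 3 or 4 or OE 8-week replicate 1, 2 or 3 was left out, without the 2 epididymal libraries and with 2 surrogate variables (1.23 to 1.95 over all alternatives). The summed level of the list was 161 CPM in Ctrl 20-week replicate 1 and 49.0 to 97.8 CPM in the other 15 libraries.

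Cd28, the costimulatory receptor, rose 3.22-fold with age in the Ctrl mice. It was at 0.983, 0.993, 1.497 and 1.85 CPM at 8 weeks and at 6.34, 4.09, 3.87 and 2.94 CPM at 20 weeks, so the groups did not overlap (18.5% of all genes were higher with no overlap). The log2 difference for Cd28 was 1.69 ± 0.31 (edgeR adjusted p = 9.39e-04) and stayed called, between 1.44 and 1.89, when each library in turn was left out. In the OE mice Cd28 was at 1.16, 2.56, 1.42 and 2.42 CPM at 8 weeks and at 2.55, 2.32, 2.80 and 2.30 CPM at 20 weeks. These groups overlapped, and their log2 difference of 0.40 ± 0.31 was not called (edgeR adjusted p = 0.361). At 20 weeks each OE library was below each Ctrl library (1.49% of all genes were lower with no overlap), with a log2 difference of -0.79 ± 0.31. Its edgeR unadjusted p was 0.0211 and its adjusted p 0.996, and over the alternatives it ranged from -0.93 to -0.54. The difference between the genotypes in the age change of Cd28 was -1.29 ± 0.43 (edgeR unadjusted p = 0.00955, adjusted p = 0.982), so it failed the correction for multiple tests.

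Ctla4, the inhibitory counterpart of Cd28, was low in all groups. Its counts ran from 0 to 52 per library, with 0 counts in Ctrl 8-week replicate 2 and OE 8-week replicate 3. The highest level was 1.51 CPM in Ctrl 20-week replicate 1, and the groups overlapped in every comparison. Its log2 difference with age was 1.35 ± 1.05 in the Ctrl (edgeR adjusted p = 0.312) and 0.15 ± 1.02 in the OE mice (0.933). Neither was called. Among the 14 costimulation and checkpoint genes, 4 rose and 0 fell with age in the Ctrl mice (19.6% of all genes were called higher). Besides Cd28 these were Havcr2 (TIM-3, a checkpoint receptor also made by myeloid cells, log2 2.38) and the shared ligands of CD28 and CTLA4 on antigen-presenting cells, Cd80 (1.46) and Cd86 (0.73). Cd86 lost its call without Ctrl 20-week replicate 1 (0.47), without Ctrl 8-week replicate 2 or 3 and with 2 surrogate variables (0.56). Of the 14, 1 rose in the OE mice (13.1% of all genes were called higher), Havcr2 at 1.77. The 10 macrophage markers rose with these genes, 10 of 10 in the Ctrl and 9 of 10 in the OE mice, from summed levels of 1237 to 2218 CPM (Ctrl) and 1588 to 2909 CPM (OE) at 8 weeks to 4934 to 8001 and 3340 to 7867 CPM at 20 weeks, with none at 0. Their part in these changes was not tested.

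Foxp3 was at 0.452, 0.173, 0.703 and 0.501 CPM in the Ctrl and at 0.496, 1.02, 0.148 and 0.808 CPM in the OE mice at 8 weeks. At 20 weeks it was at 1.51, 0.704, 0.377 and 0.463 CPM in the Ctrl and at 0.540, 0.864, 0.838 and 0.316 CPM in the OE mice. All groups overlapped, and 5 to 52 counts per library lay behind these levels. The log2 difference with age was 0.73 ± 0.60 in the Ctrl mice, or 0.17 without replicate 1 of the 20-week group, and 0.04 ± 0.59 in the OE mice. Between OE and Ctrl mice the Foxp3 difference was 0.44 ± 0.60 at 8 weeks and -0.25 ± 0.59 at 20 weeks, where it was 0.31 without the same library. Foxp3 overlaps the lncRNA Flicr and the gene Ccdc22, which was at 12.4 to 28.8 CPM. The library kit keeps strand, but the strand setting of the counting is not given in the sources used here, so the low Foxp3 counts are uncertain.

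Of 18 tested genes of the regulatory T cell programme (20 were listed), 3 rose and 1 fell with age in the Ctrl mice (of all 19189 genes, 3770 were called higher and 4083 lower). Besides Il1rl1, those that rose were Il10 (an anti-inflammatory cytokine, log2 2.53) and Batf (a transcription factor of tissue regulatory T cells, 1.12). The one that fell was Itgae (CD103, an integrin also found on type 1 dendritic cells), at -1.502. The call of Itgae held in all 26 alternatives, whereas that of Il10 was lost when Ctrl 20-week replicate 1, 2 or 3 or Ctrl 8-week replicate 2, 3 or 4 was left out, with the replicate block and with 2 surrogate variables (log2 2.38 to 2.65 over all alternatives), and that of Batf in 12 of the 16 omissions of 1 library (0.63 to 1.64 over all alternatives). In the OE mice 1 rose (Il1rl1) and 2 fell: Itgae at -1.14, in all 26 alternatives, and Ikzf4 (Eos, a partner of FOXP3) at -1.51, a call lost in 13 of the 16 omissions (-1.90 to -0.74). The median log2 change over the 18 genes was 0.31 in the Ctrl and -0.02 in the OE mice, beside -0.05 and -0.03 over all genes. In the OE mice, 2509 of all 19189 genes were called higher and 1902 lower. Of 8 type 1 dendritic cell markers, Itgae among them, 4 rose and 1 fell in the Ctrl and 2 rose and 1 fell in the OE mice, with summed levels of 83.2 to 139 CPM at 8 weeks and 166 to 280 CPM at 20 weeks and none at 0. Their part in the change of Itgae was not tested.

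Gata3, the transcription factor of type 2 helper T cells and ILC2, was high in 1 library of each 8-week group. It was at 0.983, 1.17, 1.66 and 71.3 CPM in the Ctrl and at 1.14, 45.4, 1.24 and 1.51 CPM in the OE mice at 8 weeks. At 20 weeks it was at 1.65, 1.22, 0.980 and 1.39 CPM in the Ctrl and at 1.01, 0.790, 1.47 and 1.06 CPM in the OE mice. The 2 high libraries were the 2 with epididymal transcripts, and the other 14 lay between 0.790 and 1.66 CPM. The fitted log2 difference with age was -3.84 ± 1.52 in the Ctrl (edgeR adjusted p = 0.0558) and -3.51 ± 1.504 in the OE mice (edgeR adjusted p = 0.106). Without the 2 epididymal libraries these Gata3 differences were 0.04 ± 0.28 and -0.26 ± 0.28. The Ctrl difference was called when Ctrl 8-week replicate 1, 2 or 3 or OE 8-week replicate 2 was left out (-4.24, -4.24, -4.23 and -3.84), and the OE difference when Ctrl 8-week replicate 4 was (-3.51, edgeR adjusted p = 0.0274) or with 2 surrogate variables (-2.76). The overlapping lncRNAs 4930412O13Rik and 9230102O04Rik were high in the same 2 libraries, with 437 and 650 counts in the Ctrl and 156 and 187 counts in the OE library, and had at most 9 counts in each of the other 14. Smooth muscle markers (8 genes) were also highest there, at 5106 and 4970 CPM against 219 to 971 CPM elsewhere. The share of the Gata3 counts that came from the epididymis was not tested.

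**Figure D3:**
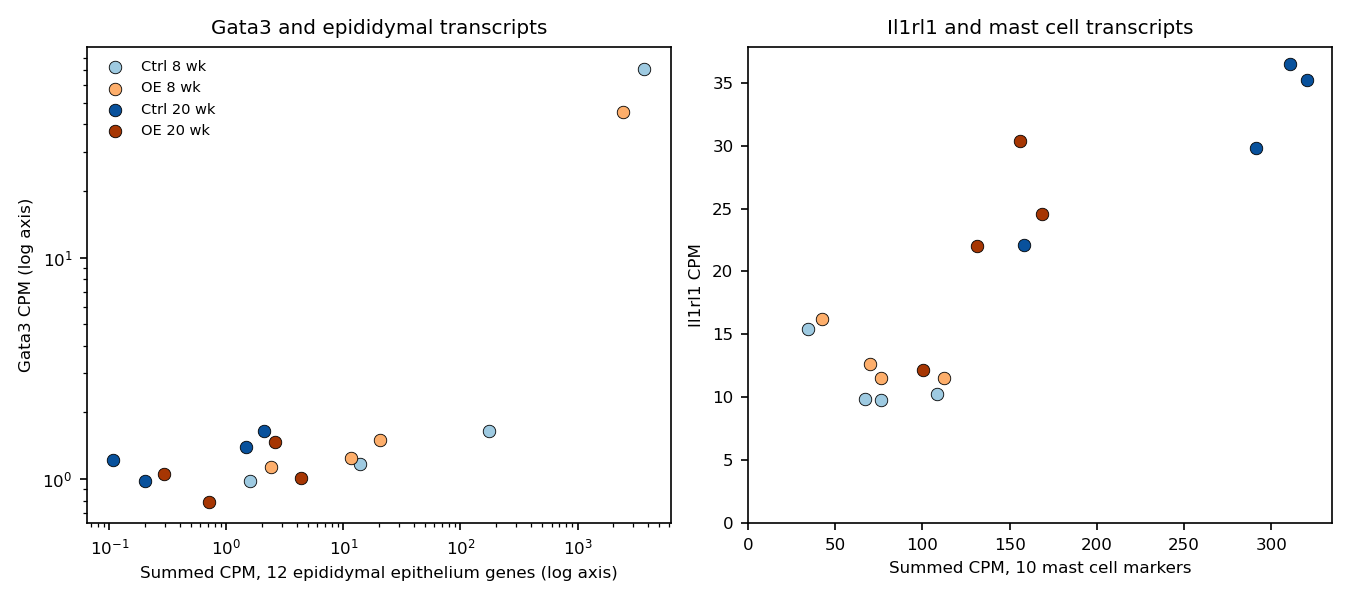
Left, Gata3 against the summed CPM of 12 epididymal epithelium genes, both on log axes; right, Il1rl1 against the summed CPM of 10 mast cell markers, on linear axes; each point is 1 of 16 libraries, coloured by group. Gata3 stands at 71.3 and 45.4 CPM in the 2 libraries with epididymal sums of 3716 and 2446 CPM and at or below 1.66 CPM elsewhere, and the 3 libraries with the highest mast cell sums, all Ctrl at 20 weeks, have Il1rl1 at 29.8 to 36.5 CPM.

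Klrg1, an inhibitory receptor of differentiated T, NK and innate lymphoid cells, differed beyond its spread in no comparison. It ranged from 0.497 to 1.07 CPM in Ctrl and from 0.473 to 1.35 CPM in OE mice at 8 weeks, and from 0.406 to 1.04 and from 0.383 to 0.988 CPM at 20 weeks. The log2 difference with age was -0.28 ± 0.42 in the Ctrl and -0.62 ± 0.42 in the OE mice, and OE differed from Ctrl by 0.28 ± 0.42 at 8 weeks and -0.06 ± 0.42 at 20 weeks, where it was 0.27 without Ctrl replicate 1. Among 12 cytotoxic and NK cell genes, 0 rose and 3 fell with age in the Ctrl mice, and 0 of 12 were called in the OE mice. Over all 19189 genes, 4083 were called lower in the Ctrl and 1902 in the OE mice, so 3 of 12 was near the Ctrl share. Gzma (granzyme A, a killing enzyme) fell by 2.30 on the log2 scale, in all 26 alternatives. Prf1 (perforin, -1.18) and Ncr1 (the NK receptor NKp46, -0.97) lost their calls in 13 of the 16 omissions of 1 library each (-1.64 to -0.80 and -1.19 to -0.43 over all alternatives).

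Il1rl1, which encodes ST2, rose 2.73-fold with age in the Ctrl and 1.72-fold in the OE mice. In the Ctrl mice it was at 15.4, 9.91, 9.82 and 10.2 CPM at 8 weeks and at 29.8, 35.2, 36.5 and 22.1 CPM at 20 weeks, with no overlap. The log2 difference was 1.45 ± 0.25 (edgeR adjusted p = 6.18e-04) and was called in all 26 alternatives, from 0.96 to 1.68. In the OE mice Il1rl1 was at 16.3, 11.6, 12.7 and 11.5 CPM at 8 weeks and at 12.2, 24.5, 22.05 and 30.4 CPM at 20 weeks. Here the groups overlapped through OE 20-week replicate 1, the low library, which was below OE 8-week replicates 1 and 3. The log2 difference of 0.78 ± 0.25 was called (edgeR adjusted p = 0.0355), but not when any of 6 libraries was left out. Those were OE 20-week replicates 2, 3 and 4 (0.73, 0.78 and 0.59) and OE 8-week replicates 2, 3 and 4 (0.73, 0.77 and 0.72), with edgeR adjusted p from 0.0683 to 0.132. Without the 3 replicate 1 libraries that stood apart it was 1.10 ± 0.17 (edgeR adjusted p = 7.45e-04), and the Ctrl difference was 1.63 ± 0.16. Those libraries held the highest Il1rl1 of each 8-week group and the lowest of the 20-week OE group. Leaving them out was bound to widen these differences, so this fit adds no support. The OE difference was 0.73 (edgeR adjusted p = 0.0754) without the 2 epididymal libraries and 0.36 (edgeR adjusted p = 0.254) with 2 surrogate variables.

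Between OE and Ctrl mice, Il1rl1 differed by 0.20 ± 0.25 at 8 weeks and by -0.47 ± 0.25 at 20 weeks on the log2 scale, the latter with an edgeR unadjusted p of 0.0744 and an adjusted p of 0.996. The 20-week groups overlapped, and the difference was -0.27 without OE 20-week replicate 1. The age change of Il1rl1 differed between the genotypes by -0.67 ± 0.35 (edgeR unadjusted p = 0.0747, adjusted p = 0.982), which is not called. Mast cells also carry ST2, and 7 of 10 mast cell markers rose with age in each genotype (19.6% of all genes in the Ctrl and 13.1% in the OE mice). Their summed level was 34.4 to 108 CPM in Ctrl and 42.3 to 113 CPM in OE mice at 8 weeks, and 158 to 321 and 100 to 169 CPM at 20 weeks, with none at 0 in any group. Within the 8-week groups, the library with the most Il1rl1 (replicate 1 of each) had the lowest mast cell sum. Within the 20-week groups, the library with the least Il1rl1 had it: Ctrl replicate 4 (Il1rl1 22.1, sum 158 CPM) and OE replicate 1 (12.2 and 100 CPM). The part of mast cells in the change of Il1rl1 was not tested.

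Il33, the ligand, was at 3.93, 15.4, 16.3 and 15.3 CPM in the Ctrl and at 6.61, 14.0, 18.2 and 13.3 CPM in the OE mice at 8 weeks. At 20 weeks it was at 23.8, 15.03, 18.2 and 20.7 CPM in the Ctrl and at 7.54, 24.2, 14.7 and 17.4 CPM in the OE mice. The low values were those of Ctrl 8-week, OE 8-week and OE 20-week replicate 1, the 3 libraries that stood apart, and all groups overlapped. The log2 difference with age was 0.61 ± 0.42 in the Ctrl (edgeR adjusted p = 0.256) and 0.29 ± 0.42 in the OE mice (0.636), or 0.31 ± 0.19 and 0.31 ± 0.20 without those 3. Leaving out the lowest library of each of these groups was bound to raise the levels of those groups, so this fit adds no support. OE differed from Ctrl by 0.03 ± 0.42 at 8 weeks and by -0.28 ± 0.42 at 20 weeks. Among the cells that make IL-33, 10 mesothelial markers had 0 higher and 3 lower with age in the Ctrl and 0 higher and 8 lower in the OE mice, with summed levels of 183 to 440 CPM (Ctrl) and 346 to 422 CPM (OE) at 8 weeks and 147 to 369 and 51.1 to 140 CPM at 20 weeks. Of 10 stromal progenitor markers, 5 rose in the Ctrl and 1 rose and 1 fell in the OE mice (2212 to 2824 CPM at 8 weeks, 2596 to 3128 CPM at 20 weeks). Of 8 endothelial markers, 7 fell in the Ctrl and 2 fell in the OE mice (1188 to 1697 and 647 to 1359 CPM). None of these markers was at 0 in a group, and their part in the level of Il33 was not tested. Over all 19189 genes, 3770 were called higher and 4083 lower with age in the Ctrl mice, and 2509 and 1902 in the OE mice. The lncRNA Gm41832 overlaps Il33 but had at most 10 counts in any library.

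Downstream of ST2, 4 of 9 genes of the IL-33 receptor pathway rose with age in the Ctrl mice and 0 fell (19.6% of all genes were called higher). They were Il1rl1 itself, its co-receptor Il1rap (log2 0.65 ± 0.17), the kinase Irak4 (0.79 ± 0.22) and the adaptor Myd88 (0.40 ± 0.13), which other receptors of the family share. Il1rap and Irak4 kept their calls in all 26 alternatives, and Myd88 lost its own without Ctrl 20-week replicate 1, 2 or 3 or Ctrl 8-week replicate 2, 3 or 4, without the 2 epididymal libraries (0.38) and with 2 surrogate variables (0.15). Of the 9, Il1rl1 alone was called in the OE mice (13.1% of all genes were called higher). The list of ILC2 genes and type 2 cytokines had 11 of 16 genes tested, since Il4, Il5, Il9, Il13 and Il25 were too low. Of these 11, 2 rose (Il7r, the IL-7 receptor of lymphoid cells, at 4.24, and Il1rl1) and 1 fell (Il17rb, the IL-25 receptor, at -2.32) in the Ctrl mice. Il17rb was not called without Ctrl 20-week replicate 3 (-2.04) or with 2 surrogate variables (-0.56). Among OE mice 2 of 11 rose, Il7r at 3.43 and Il1rl1, and 0 fell. Il7r was at 2.02 to 16.5 CPM at 8 weeks and 36.7 to 126 CPM at 20 weeks, and Cd68, a macrophage gene, at 46.0 to 149 and 307 to 893 CPM. The highest 8-week library for both was OE replicate 2, and the lowest 20-week library for both was OE replicate 1. The highest 20-week library was OE replicate 4 for Il7r and Ctrl replicate 2 for Cd68. At 20 weeks the Ctrl and OE means were 66.3 and 78.3 CPM for Il7r and 692 and 586 CPM for Cd68. The part of macrophages in the change of Il7r was not tested. Of 6 tested eosinophil genes, the eotaxin receptor Ccr3 rose in the Ctrl mice (3.10) and Alox15, a lipoxygenase, fell in the OE mice (-2.31), each in all 26 alternatives. The 7 listed genes summed to 25.1 to 83.1 CPM in Ctrl and 39.2 to 76.4 CPM in OE mice at 8 weeks. At 20 weeks the sums were 31.1 to 51.3 and 28.3 to 37.6 CPM, overlapping those at 8 weeks. Epx, another gene of this list, was at 0 in every library of the OE 8-week group and of both 20-week groups.

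Of 9 tested helper lineage genes, 3 rose in the Ctrl mice: Stat6 (the IL-4 signal transducer, log2 0.40), Il12rb2 (an IL-12 receptor chain, 1.04) and Cxcr5 (a follicle-homing receptor shared by B cells, 2.24). Cxcr5 went to 0.91 without Ctrl 20-week replicate 1 and also lost its call without Ctrl 8-week replicate 1, 2 or 4, and 0 of the 9 were called in the OE mice. With 2 surrogate variables Stat6 went to 0.19 and was not called. Beside the counts of these lists, 3770 of all 19189 genes were called higher and 4083 lower in the Ctrl mice. In the OE mice these were 2509 and 1902. Of 10 genes of naive and lymphoid-homing T cells, 2 rose (Il7r and Bach2, 0.60) and 1 fell (S1pr1, the egress receptor, also made by endothelium, -0.48) in the Ctrl mice. Bach2 and S1pr1 lost their calls in 4 and 6 of the 16 omissions of 1 library. In the OE mice 1 rose (Il7r) and 2 fell, Satb1 (a chromatin organiser of T cells, -1.52) and S1pr1 (-0.47), which lost their calls in 5 and 11 of the 16 omissions. The B cell markers rose in 8 of 8 genes in the Ctrl mice (3 of 8 without Ctrl 20-week replicate 1) and in 1 of 8 in the OE mice. Their summed level was 6.13 to 14.5 CPM in Ctrl and 10.2 to 29.7 CPM in OE mice at 8 weeks, and 40.8 to 128 and 17.8 to 32.1 CPM at 20 weeks.

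At 20 weeks the estimates of all 10 members were lower in OE than in Ctrl mice, with a median log2 difference of -0.44 against 0.02 over all genes tested. Some marker lists of other cells had one-sided estimates too, with none called. B cell markers were below 0 in 8 of 8 (median -2.39, or -1.38 without Ctrl replicate 1). Mast cell markers were below 0 in 10 of 10 (-1.06, or -1.03) and macrophage markers in 10 of 10 (-0.30, or 9 of 10 and -0.30). Adipocyte markers were above 0 in 10 of 10 (0.38, or 0.44) and endothelial markers in 8 of 8 (0.31 with all libraries). Other lists were split, with 6 of 12 cytotoxic and NK cell genes and 5 of 10 stromal progenitor markers below 0. The part of these cells in the members' direction was not tested. The members' direction rested in part on Ctrl replicate 1, the highest library of its group for every member except Il1rl1. Without it, 6 of the 10 were lower and 4 higher, with a median of -0.16. Cd8a (0.15), Foxp3 (0.31), Ctla4 (0.35) and Klrg1 (0.27) then had estimates above 0, while Cd28 (-0.54) and Il1rl1 (-0.49) were then the farthest below 0, where Cd3e (-1.18) and Cd4 (-0.98) had been with all libraries. The T cell receptor list behaved alike, with 18 of 18 estimates below 0 and a median of -0.84 with that library, and 11 of 18 and -0.12 without it. At 8 weeks, 8 of the 10 members had estimates above 0, with a median of 0.29. In both genotype comparisons and the interaction, edgeR called 0 genes of any of the 19 lists, and 4, 5 and 0 over all genes. DESeq2 called 15, 60 and 30 over all genes.

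Ratios within a library set the counts of one member against those of another. Foxp3 to Cd3e had mean log2 ratios of -1.28 ± 0.76 (SD, n = 4) in Ctrl and -1.29 ± 1.11 in OE mice at 8 weeks, and -1.69 ± 0.63 and -0.89 ± 0.57 at 20 weeks. Ctla4 to Cd28 ranged from -6.60 to -1.02 over the 16 libraries, with its lowest values in the 2 libraries without a Ctla4 count. Il1rl1 counts exceeded those of Foxp3 in every library, with log2 ratios from 3.48 to 6.55. For Cd8a to Cd4, the 20-week OE libraries, at -0.67, -0.87, -0.99 and -0.62, were all above the Ctrl libraries, at -1.05, -1.20, -1.04 and -1.32. That difference of 0.37 had the smallest p that 4 against 4 can give (exact permutation test, two-sided, p = 0.0286), and 0.457 after adjustment over the 16 ratio tests. None of the other 15 passed unadjusted, with exact permutation p from 0.0857 for Cd8a to Cd4 with age in the OE mice upwards.

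**Figure D4:**
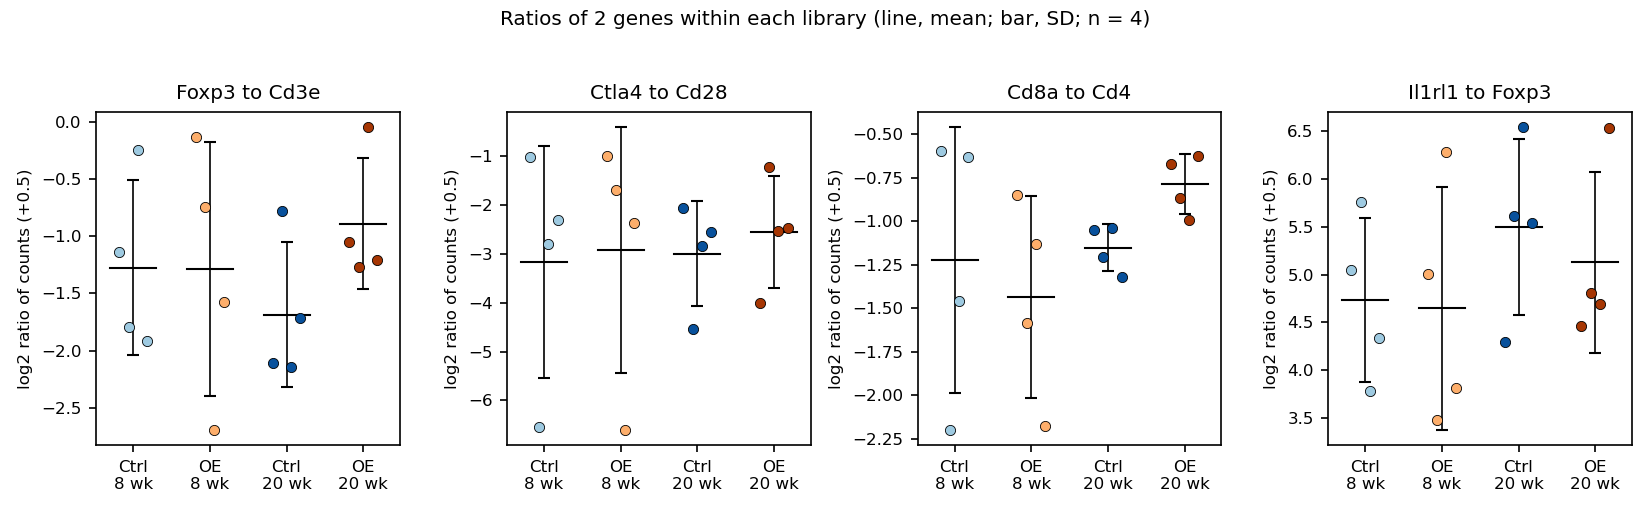
Log2 ratio of the counts of 2 genes (0.5 added to each) within each library, by group, with the mean (line) and SD (bar) of 4 libraries. The Cd8a to Cd4 ratios at 20 weeks do not overlap between OE (-0.99 to -0.62) and Ctrl (-1.32 to -1.04), and the other ratios overlap between the groups of every comparison.

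The T cell receptor and coreceptor genes moved together from library to library. Each library's deviation from its group mean was taken over the 16 libraries, which share depth and tissue composition. Cd3e then correlated with Cd8a at r = 0.889 and with Cd4 at r = 0.867. Foxp3 correlated with Ctla4 at 0.758, Cd28 at 0.697 and Klrg1 at 0.691, and Ctla4 with Klrg1 at 0.793. The r of Il1rl1 was -0.467 with Cd4, -0.287 with Cd8a, -0.245 with Cd28, -0.219 with Gata3 and -0.201 with Cd3e. It was -0.085 with Foxp3, 0.077 with Klrg1, 0.274 with Ctla4 and -0.126 with Il33. Among 13137 tested genes (mean log2 CPM of at least 0, without symbols of predicted or clone-named models), the 3 most like Cd3e were Gimap3 (0.935), Serpina3g (0.917) and Fcho1 (0.915). The 3 most like Foxp3 were Slamf6 (0.884), Zfp831 (0.834) and Cd3d (0.825), those most like Il1rl1 were Cltc (0.971), Cyb5r4 (0.960) and Pros1 (0.944), and those like Il33 included Fgl2 (0.852) and Zscan22 (0.831). These are Pearson correlations of log2 CPM, given as a description with no test.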

How the data were processed

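RNA was sequenced from 16 samples of epididymal fat, 4 in each of 4 groups. The submitters' processing notes name bcl2fastq 2.20.0, Trimmomatic, HISAT2 2.1.0, StringTie 2.1.3b and the mm10 build; their roles, the annotation release and the strand setting of the counting are not given in the sources used here. The authors deposited whole-number read counts per gene, which were tested, FPKM, which were not used here, and TPM, which were used to order levels between genes. All value columns were matched to samples by their names, and the labels per title gave genotype, age and replicate.

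Counts were filtered with filterByExpr (minimum count 10), which left 19189 genes, scaled with TMM, and fitted with edgeR 4.0.16 (R 4.3.3) quasi-likelihood, 4 groups without covariates, 5 contrasts, Benjamini-Hochberg adjustment over all genes. CPM use library totals scaled by the TMM factors. Libraries held 33626901 to 67576994 counts, and counting error alone limits genes with few counts. The alternatives were RLE and upper-quartile scaling, no filter, DESeq2 1.42.0, limma-voom 3.58.1 with quality weights, fits of the 2 groups compared, a replicate block, 2 surrogate variables (sva 3.50.0), leaving out libraries that stood apart, and leaving out each library. Ratios of counts (0.5 added) were compared with exact permutation tests. The scripts were tested on simulated data. Of 2-fold changes put in between OE and Ctrl mice, 46.4% were called at 8 weeks and 49.3% at 20 weeks. For 1.5-fold changes these shares were 11.1% and 20.3%, so a gene that is not called may still differ. Promoter windows are RefSeq's (GRCm38.p6).

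All 10 members are named in every comparison; from each of the other lists, up to 4 called genes with the smallest adjusted p; from marker lists, counts and summed CPM. The members and the 19 gene lists were chosen with earlier results of these data known. A gene among those most like Il33 is not reported here.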

Additional observations from a re-analysis of the deposited data

Results flagged for a closer look

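Of 40 sets of 4 libraries (10 genes in 4 groups), 4 held a library whose gap to the nearest other, divided by the whole range of log2 CPM, was above the 95% critical value of Dixon's test for 4 values; chance alone gives about 1 in 20 such sets. Gata3 was high in Ctrl 8-week replicate 4, with a gap of 0.881 of the range (71.3 CPM against 0.983 to 1.66 CPM), and in OE 8-week replicate 2, with 0.926 (45.4 CPM against 1.14 to 1.51 CPM). Il1rl1 was high in Ctrl 8-week replicate 1, with 0.906 (15.4 CPM against 9.82 to 10.2 CPM). Il33 was low in the same library, with 0.956 (3.93 CPM against 15.3 to 16.3 CPM).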

How the results depend on the processing

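The count of members called was 0 in both genotype comparisons and for the interaction in every alternative run. With age in the Ctrl mice it was 2 or 3, and Cd28 and Il1rl1 were called in all 26 alternatives; Gata3, Cd3e or Cd4 was the third where there was one. With age in the OE mice it was 1, and it was 0 in fits of the 2 groups compared, with the replicate block and without the 2 epididymal libraries, and between 0 and 2 when 1 library was left out. With 2 surrogate variables the 1 called was Gata3 (-2.76, edgeR adjusted p = 0.0347) in place of Il1rl1 (0.36, edgeR adjusted p = 0.254). Of the values of single members, 10 lost a call (all for Il1rl1 in the OE mice) and 9 gained one, and of the values of other list genes 170 lost a call. None changed sign while called. The labels do not say whether replicate numbers pair the samples, and correlations cannot settle it. The deviations of Ctrl and OE libraries with the same number correlated at 0.826, -0.198, -0.033 and 0.278 at 8 weeks and at 0.012, -0.012, 0.029 and -0.239 at 20 weeks. The first was the highest of any pair, and the next was between unlike numbers, Ctrl 8-week replicate 4 and OE 8-week replicate 2 (0.692). With the replicate block, the age change of Il1rl1 in the OE mice was 0.75 ± 0.23 (edgeR adjusted p = 0.0514), and 0 members were called there, while 2 stayed called in the Ctrl mice. The call for all 16 ratios stayed on the same side of the threshold with a pseudocount of 5 and with each library left out, where 3 against 4 cannot give an exact p below 0.0571. Counts were low for Ctla4 and Foxp3, with at most 52 of either in a library.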
